A study of Mus musculus with 32 samples.

Results

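The genes described here were chosen by 2 measured differences around Ebf1, a transcription factor that early B-cell development requires. A gene was kept if its mean log2 value was at least 0.8 lower with an Ebf1-Engrailed fusion than with an empty vector, and at least 0.5 higher at 24 h than at 6 h after activation of an Ebf1-ER fusion. Of 18193 genes measured, 261 passed both cuts. Symbols from a fixed set of replication, mitosis, histone and pre-B receptor names were then left out, which removed 80 genes and left 181. The working label for these 181 genes was that they lie outside the cell cycle, and their names went against it. A list of cell cycle genes, drawn up with earlier results of these data known, held 84 of the 181, or 46.4%. Of all 18193 genes it held 176, once the same symbols were left out. The other 97 were sorted by known role after membership was known. They held 26 further genes of genome maintenance and mitosis, 13 lymphoid genes and 58 of other or unknown role, so 110 of the 181 genes, 60.8%, belonged to cell division or genome maintenance. They are therefore called reciprocal genes here, after the opposite signs of the 2 cuts.

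Transcript abundance was measured on 32 arrays in 3 experiments. In the first, the mouse pre-B cell line 230238 was infected with pMIG-Ebf1-engrailed (3 samples) or with the pMIG empty vector (3 samples), and 500000 cells sorted for the green fluorescent protein of the vector were used per sample. Engrailed is a repressor domain, so the fusion carries a repressor to sites that Ebf1 binds. In the second, Ebf1-/- cells of C57BL/6J fetal liver at embryonic day 14.5 were expanded on OP9 stromal cells with KIT ligand, FLT3 ligand and interleukin-7. They were infected with pMIG-Ebf1-ER, sorted, and harvested after 0, 6, 12 or 24 h with 4-hydroxytamoxifen at 0.1 uM (2 arrays each). All 4 times shared the Ebf1-/- genotype and the Ebf1-ER vector. In the third, enlarged lymph nodes of 8 C57BL/6 mice about 30 weeks old and heterozygous for both factors (Ebf1+/-Pax5+/-) were frozen live, thawed and sorted for 1000000 live cells, with 2 arrays per node. They were set against sorted wild-type C57BL/6 pro-B cells (2 samples, 1000000 cells each). The node numbers were read as 1 mouse each. The nodes were sorted for live cells and not by cell type, and the labels describe no thaw of the wild-type cells, so thawing and sort cannot be told apart from genotype.

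Ebf1 acts with Pax5, Foxo1 and E proteins to switch on the genes of the pro-B and pre-B cell. Among these are Rag1 and Rag2, whose products cut immunoglobulin genes for V(D)J recombination, and the parts of the pre-B receptor. Pro-B and large pre-B cells divide fast under interleukin-7, and small pre-B cells stop dividing while they recombine their light chain genes. Genes of division and genes of recombination therefore mark different states of the same lineage.

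Each probe set had been centred before deposit, so the values give differences between arrays of an experiment and no expression levels. In bulk samples fewer cells of a type and less RNA per cell cannot be told apart. In the Ebf1-ER experiment the 0 h arrays stood apart from the later ones on the first principal component, which held 70.2% of the variance. The wild-type pro-B samples carried signals of other cells. All 5 measured granulocyte markers were lower in the lymph nodes, with a mean of -0.76 to 2.17 over the 8 nodes against 6.82 to 7.11 in the wild-type samples. So were 7 of 8 macrophage and monocyte markers, 4 of 4 erythroid markers and 4 of 7 stromal markers. T-cell markers ranged from -1.09 to 2.90 over the nodes, highest in node 279, against -0.44 to -0.14 in the wild-type samples. None of the 9 T-cell markers was called. Of 9 measured pro-B cell genes, none was called either. Ebf1 has 5 probe sets, which disagreed in the tumours: 4 were lower in the nodes, by 0.72 to 1.01, and 1 was 4.48 higher. With Ebf1-Engrailed all 5 were lower than with the empty vector, with differences of -1.77 to -0.37. At 12 h against 0 h 4 of them differed by -0.84 to -0.42 and 1 by 0.06. The shares of the cells' own Ebf1 and of that of the vectors in these values were not tested.

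Promoter windows of RefSeq (build GRCm38.p6, 250 bases before to 50 after the gene start) were found for 143 of the 181 reciprocal genes. A strict palindromic form of the Ebf1 motif, TCCC and GGGA with any 2 bases between them, lay in the windows of 4 of them (2.80%), against 184 of 14367 genes with a window (1.28%). All 4 were off the cell cycle list, 4 of 76 (5.26%), and none of the 67 list genes with a window held it. Of the 68 genes with a window among those left out by symbol, 1 held it (1.47%). These counts are small and carry no test. The 4 reciprocal genes are Foxo1, the glycosylase gene Neil1, Tmem108 and Grb10. The windows are shown with the palindrome in capitals. It starts 92 bases before the gene start in Foxo1 (chr3:52268087-52268386, plus strand) and 181 bases before it in Neil1 (chr9:57148256-57148555, minus strand). In Tmem108 it starts 162 bases before (chr9:103692758-103693057, minus strand) and in Grb10 228 bases before (chr11:12027922-12028221, minus strand).
Foxo1: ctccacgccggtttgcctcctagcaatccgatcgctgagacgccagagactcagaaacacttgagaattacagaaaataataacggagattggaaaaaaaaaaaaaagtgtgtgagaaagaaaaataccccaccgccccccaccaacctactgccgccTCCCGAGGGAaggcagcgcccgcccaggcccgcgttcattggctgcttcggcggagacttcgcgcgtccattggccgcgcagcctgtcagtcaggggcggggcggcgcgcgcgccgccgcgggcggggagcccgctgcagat
Neil1: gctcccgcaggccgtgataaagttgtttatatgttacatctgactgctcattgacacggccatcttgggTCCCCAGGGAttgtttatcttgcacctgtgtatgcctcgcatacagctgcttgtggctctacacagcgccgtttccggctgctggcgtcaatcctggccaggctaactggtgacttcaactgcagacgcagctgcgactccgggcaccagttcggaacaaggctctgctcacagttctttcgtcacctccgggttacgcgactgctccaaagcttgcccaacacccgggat
Tmem108: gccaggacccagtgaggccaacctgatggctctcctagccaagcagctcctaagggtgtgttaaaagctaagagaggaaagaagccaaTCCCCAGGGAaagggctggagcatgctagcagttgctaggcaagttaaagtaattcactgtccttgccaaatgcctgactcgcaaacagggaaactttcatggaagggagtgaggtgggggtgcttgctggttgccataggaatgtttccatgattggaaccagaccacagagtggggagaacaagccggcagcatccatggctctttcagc
Grb10: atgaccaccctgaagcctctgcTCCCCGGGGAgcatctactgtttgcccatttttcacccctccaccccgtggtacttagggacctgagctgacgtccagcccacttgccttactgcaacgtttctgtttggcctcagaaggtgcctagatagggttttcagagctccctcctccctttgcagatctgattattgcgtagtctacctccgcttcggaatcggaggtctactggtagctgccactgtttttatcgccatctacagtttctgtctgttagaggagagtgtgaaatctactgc

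The letters TTTGAA or TTCGAA, the core of the cell cycle homology region through which mitotic genes are timed, were more frequent. Counted per gene and on either strand, they lay in a window of 49.3% of list genes (33 of 67), 28.9% of genes off the list (22 of 76) and 17.5% of all genes (2514 of 14367). The E2F letters TTTGGCGC or TTTCCCGC lay in 10.4%, 7.89% and 2.77% of the same sets, and CCAAT in 59.7%, 48.7% and 42.0%. The inner part of the Ebf1 motif, CCCNNGGG, which also lies within the palindrome, was in 19.4%, 25.0% and 19.7%. Windows of genes that share a start region overlap, and a match is a run of letters and not a bound site. Of the 10 reciprocal genes with the largest difference between 24 h and 6 h, 6 had a window and 5 of these held the cell cycle letters. The windows of 3 mitotic examples are shown with those letters in capitals, which read TTCAAA where TTTGAA lies on the other strand: Depdc1a (chr3:159495183-159495482, plus strand), the spindle gene Spag5 (chr11:78301341-78301640, plus strand) and Prr11 (chr11:87108665-87108964, minus strand).
Depdc1a: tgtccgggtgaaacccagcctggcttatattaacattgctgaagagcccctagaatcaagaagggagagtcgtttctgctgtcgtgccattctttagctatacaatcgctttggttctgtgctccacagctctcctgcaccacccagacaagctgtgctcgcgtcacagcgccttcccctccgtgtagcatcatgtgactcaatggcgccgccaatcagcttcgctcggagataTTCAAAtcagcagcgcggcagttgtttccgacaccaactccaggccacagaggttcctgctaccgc
Spag5: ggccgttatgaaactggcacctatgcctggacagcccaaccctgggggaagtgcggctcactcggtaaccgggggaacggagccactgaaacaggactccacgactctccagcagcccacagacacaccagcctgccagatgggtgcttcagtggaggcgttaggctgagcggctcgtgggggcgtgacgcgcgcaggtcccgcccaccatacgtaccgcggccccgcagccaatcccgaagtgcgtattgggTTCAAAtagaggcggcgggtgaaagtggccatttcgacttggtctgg
Prr11: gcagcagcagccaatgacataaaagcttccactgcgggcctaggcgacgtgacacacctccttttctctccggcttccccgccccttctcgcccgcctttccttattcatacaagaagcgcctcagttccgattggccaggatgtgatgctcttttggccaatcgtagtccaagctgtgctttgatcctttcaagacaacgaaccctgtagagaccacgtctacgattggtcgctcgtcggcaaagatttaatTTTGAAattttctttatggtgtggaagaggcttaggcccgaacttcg

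The differences with Ebf1-Engrailed chose the genes and are given as a description. They ran from -3.34 to -0.80 with a median of -1.09 on the log2 scale. Over all genes 4.09% were at or past that cut, 4.42% past the cut for 24 h and 1.43% past both. Just inside the first cut lay Xrcc6 (-0.809), Tle3 (-0.805) and Ttf2 (-0.803), and just outside it Taf5 (-0.795), Knstrn (-0.791) and Cks2 (-0.789). Just inside the second lay Atad5 (0.53), Ttpal (0.510) and Fcrla (0.504), and just outside it Cdt1 (0.499), Pkig (0.497) and Whamm (0.492). The Ebf1-Engrailed samples did not overlap the empty-vector samples for 168 of the 181 genes, where 15.5% of all genes lay lower without overlap. Samples that shared a number deviated together, and within the numbered pairs 181, 181 and 180 of the genes were lower with Ebf1-Engrailed in pairs 1, 2 and 3. The median difference was -1.19, -1.22 and -0.95 in those pairs. Of 116 genes with several probe sets, 23 had all of them past both cuts, and none had a probe set past a cut of the same size in the opposite direction. In 5 of the 181 genes, Baz1b and Sla among them, no single probe set passed both cuts, since a different one was used in each experiment.

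The 10 largest decreases were a mixed group. Mfsd4a, a membrane protein of the major facilitator family, stood at -1.63, -1.80 and -1.25 in the Ebf1-Engrailed samples, against 1.92, 2.19 and 1.25 in the empty-vector samples, a 10.2-fold difference. Clgn, a chaperone of the endoplasmic reticulum best known from testis, stood at -2.18, -2.47 and -1.07 with Ebf1-Engrailed and at 1.07, 1.19 and 1.39 with the empty vector. Erg, an ETS transcription factor of blood stem cells and early lymphoid cells, stood at -1.38, -1.05 and -1.27 with Ebf1-Engrailed and at 1.05, 2.11 and 2.13 with the empty vector. The groups did not overlap in any of these 3 genes. Both cuts were passed by 2 of 4 probe sets of Mfsd4a, 1 of 3 of Clgn and 1 of 2 of Erg. The other 7 were Mirt1, a non-coding RNA (-2.58), the carbonic anhydrase Car3 (-2.39), the fast muscle troponin Tnni2 (-2.37) and Sit1, an adaptor that restrains antigen receptor signalling (-2.29). Then came Esco2, which acetylates cohesin (-2.17), 2700099C18Rik (-2.09) and Mybl2, a transcription factor of cell cycle genes (-2.06). Of these 7, Car3 passed both cuts on 1 of 4 probe sets, Tnni2 on 2 of 3, and 2700099C18Rik and Mybl2 on 1 of 2 each. Mirt1, Sit1 and Esco2 passed on all of theirs.

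The differences between 24 h and 6 h also chose the genes and are given as a description. They ran from 0.50 to 2.27 with a median of 1.01. All 181 genes lay higher at 24 h than at 6 h without overlap, where 26.4% of all genes did. The largest belonged mostly to mitosis. Depdc1a differed by 2.27, the spindle proteins Nusap1, Ska1 and Spag5 by 2.21, 2.12 and 1.94, Prr11 by 2.05, Pimreg by 1.95, the abscission factor Cep55 by 1.93 and Esco2 by 1.93. The exceptions were P2rx3, an ATP-gated ion channel known from sensory neurons (2.06), and the non-coding RNA Lockd (1.93). Depdc1a stood at -0.21 and 0.21 at 0 h, -1.10 and -1.29 at 6 h, -0.25 and 0.27 at 12 h and 1.18 and 0.96 at 24 h. Its values at 24 h were the highest and those at 6 h the lowest, with 0 h and 12 h between them and overlapping. P2rx3 stood at -1.99 and -2.17 at 0 h, -0.61 and -0.54 at 6 h, 0.56 and 0.54 at 12 h and 1.56 and 1.41 at 24 h, higher at each later time.

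At 6 h 101 of the 181 genes (55.8%) lay below their 0 h mean, where 46.5% of all genes did, and 80 lay above it. At 24 h 161 lay above it, where 55.5% of all genes did, and 20 lay below it. Only 2 of those 20 were on the cell cycle list. The median difference of list genes from 0 h was -0.16 at 6 h, 0.81 at 12 h and 1.22 at 24 h. For the 26 further genome genes it was 0.52, 1.14 and 1.35, for the 58 remaining genes -0.15, 0.09 and 0.67, and for the 13 lymphoid genes -0.28, 0.01 and 0.55. At 12 h 153 genes lay between their 6 h and 24 h means, where 20.7% of all genes lay in that order. These differences share arrays with the cut on 24 h and 6 h and carry no test.

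**Figure D1:**
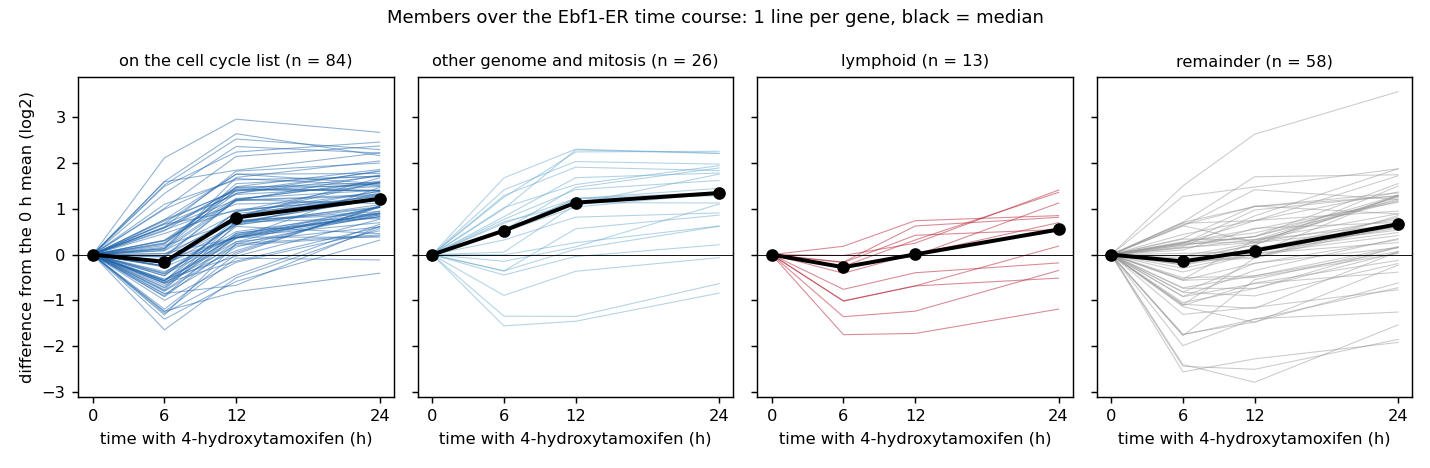
Difference of each reciprocal gene from its 0 h mean (y axis, log2) against time with 4-hydroxytamoxifen (x axis, hours), 1 thin line per gene and the median in black, by class. At 24 h the medians are 1.22, 1.35, 0.55 and 0.67 for the list, genome, lymphoid and remaining genes, and several lymphoid and remaining genes end below 0.

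Among the 13 lymphoid genes, those of V(D)J recombination were low at 6 h and 12 h. Rag1 stood at 0.69 and 0.93 at 0 h, -0.52 and -0.57 at 6 h, -0.45 and -0.40 at 12 h and 0.53 and 0.40 at 24 h. Rag2, its neighbour in the genome, stood at 0.27 and 0.51 at 0 h, -0.70 and -0.54 at 6 h, -0.31 and -0.27 at 12 h and 0.52 and 0.64 at 24 h. Both were lowest at 6 h, and at 24 h Rag1 was still below both 0 h arrays while Rag2 was above them. Foxo1, a transcription factor known to drive Rag expression in B cells, stood at -0.02 and 0.01 at 0 h, -0.24 and -0.32 at 6 h, 0.00 and 0.00 at 12 h and 0.60 and 0.79 at 24 h. It was lowest at 6 h, back near its 0 h values at 12 h and highest at 24 h, with the 24 h arrays clear of all others. In 230238 cells Foxo1 stood at -0.73, -0.72 and -0.22 with Ebf1-Engrailed, against 0.32, 0.22 and 0.23 with the empty vector. The groups did not overlap, and 3 of its 4 probe sets passed both cuts.

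Rag1 overlapped between the vectors in 230238 cells. It stood at -1.96, -2.17 and 0.29 in Ebf1-Engrailed samples 1, 2 and 3, against -0.02, 0.02 and 1.76 in empty-vector samples 1, 2 and 3. The groups overlapped, yet each Ebf1-Engrailed sample was below the empty-vector sample of its own number, and both samples numbered 3 were the highest of their group. Rag2 stood at -0.73, -0.54 and -0.09 with Ebf1-Engrailed and at 0.17, 0.09 and 1.16 with the empty vector. Blk, a Src-family kinase of B cells, stood at -1.01, -1.06 and 0.09 with Ebf1-Engrailed and at 0.02, -0.02 and 0.94 with the empty vector, again overlapping through the samples numbered 3. Sit1 and Erg were the most strongly lowered lymphoid genes and did not overlap.

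Other lymphoid genes were also highest at 24 h. Sit1 stood at -0.16 and -0.11 at 0 h, -0.51 and -0.27 at 6 h, 0.11 and 0.27 at 12 h and 1.21 and 1.25 at 24 h. Jchain, the joining chain of secreted antibodies, stood at -0.47 and -0.45 at 0 h, -0.22 and -0.34 at 6 h, 0.22 and 0.34 at 12 h and 0.44 and 0.34 at 24 h. Both had their lowest arrays at 0 h or 6 h, and Sit1 at 24 h was clear of all earlier arrays while for Jchain an array of 12 h lay level with one of 24 h. Mzb1, a chaperone of antibody-secreting B-lineage cells, and Niban3 are outside the naming rule and were picked after their values were seen. Mzb1 stood at -0.08 and -0.14 at 0 h, -0.19 and -0.07 at 6 h, 0.07 and 0.20 at 12 h and 1.29 and 1.31 at 24 h. Niban3 stood at -0.01 and 0.05 at 0 h, -0.32 and -0.19 at 6 h, 0.00 and 0.00 at 12 h and 1.07 and 1.23 at 24 h. In both genes the earlier arrays lay close together and the 24 h arrays far above them.

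**Figure D2:**
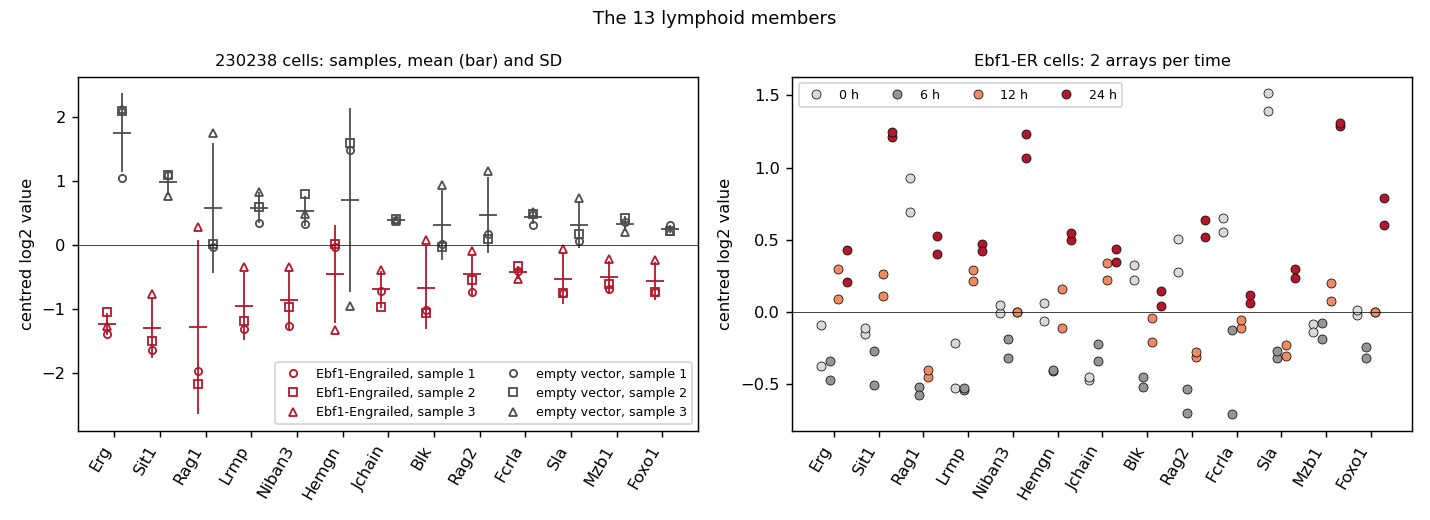
Centred log2 values (y axis) of the 13 lymphoid genes. Left, 3 Ebf1-Engrailed samples (red) and 3 empty-vector samples (grey) with mean and SD, each marker shape a sample number. Right, 2 Ebf1-ER arrays at each of 0, 6, 12 and 24 h. The Rag1 values overlap between the vectors only through the samples numbered 3, and Rag1, Fcrla, Sla and Blk end below both of their 0 h arrays at 24 h.

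The difference between 12 h and 0 h uses no array of either cut and was tested with limma over all 18193 genes. The spread and the choice of probe set drew on all Ebf1-ER arrays, those at 6 h and 24 h included. Of the 181 reciprocal genes 101 were higher at 12 h, 32 lower and 48 did not pass an adjusted p of 0.05. A fit to only the 4 arrays at 0 h and 12 h gave 97 higher and 29 lower. Over all genes 19.9% were higher and 19.9% lower, 39.8% in either direction. The median difference was 0.47 for the reciprocal genes and 0.03 over all genes. By class the counts were uneven. On the cell cycle list 62 of 84 genes were higher and 5 lower, and of the 26 further genome genes 19 were higher and 3 lower. Of the 58 remaining genes 17 were higher and 19 lower, and of the 13 lymphoid genes 3 were higher and 5 lower. The 80 genes left out by symbol had 66 higher and 4 lower. In this comparison the effects of Ebf1-ER, of 4-hydroxytamoxifen itself and of the hours in culture cannot be told apart. At 12 h 4 of 5 NK-cell markers, 4 of 7 stromal markers, 4 of 8 macrophage and monocyte markers and 3 of 9 T-cell markers were lower than at 0 h. Of the macrophage and monocyte markers 1 was higher. Of 9 pro-B cell genes 5 were lower and 2 higher (median -1.24), and of 5 plasma-cell markers 1 was lower and 2 higher. The part of any of these cell types in these differences was not tested.

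The 10 largest increases at 12 h belonged mostly to cell division and genome maintenance, with P2rx3 as an exception. Exo1, a nuclease of mismatch repair and recombination, stood at 0.60 and 0.51 at 12 h, against -2.41 and -2.39 at 0 h. The difference was 2.96 ± 0.09 (SE, adjusted p = 1.7e-06), with both 12 h arrays above both 0 h arrays. Mybl2 stood at 0.85 and 0.66 at 12 h, against -1.94 and -1.84 at 0 h, a difference of 2.64 ± 0.10 (SE, adjusted p = 2.5e-06). The spindle checkpoint ATPase Trip13 differed by 2.53 ± 0.11 (SE, adjusted p = 4.2e-06), Dscc1, which loads the replication clamp for cohesion, by 2.36 ± 0.12 (SE, adjusted p = 6e-06) and the helicase-nuclease Dna2 by 2.30 ± 0.11 (SE, adjusted p = 4.9e-06). The ion channel P2rx3 differed by 2.63 ± 0.10 (SE, adjusted p = 2.8e-06). Haspin, a histone H3 kinase of mitosis, Aunip, Uhrf1, which maintains DNA methylation, and Lrr1 rose by 2.29, 2.24, 2.24 and 2.15. On these 10 genes all values at 12 h were above those at 0 h.

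The 10 largest decreases at 12 h were a mixed group. Tifa, an adaptor of TRAF signalling, stood at -0.80 and -0.82 at 12 h, against 1.98 and 1.98 at 0 h, a difference of -2.79 ± 0.10 (SE, adjusted p = 2.3e-06). Dusp5, a phosphatase of the kinase ERK, stood at -0.34 and -0.40 at 12 h, against 2.08 and 2.19 at 0 h, a difference of -2.51 ± 0.09 (SE, adjusted p = 2.3e-06). Mirt1 differed by -2.28 ± 0.11 (SE, adjusted p = 4.9e-06) and the Src-like adaptor Sla, which damps antigen receptor signalling, by -1.72 ± 0.09 (SE, adjusted p = 7.8e-06). These genes entered the set through their rise after 6 h and ended below 0 h at 24 h, by 1.54 for Tifa and 1.85 for Dusp5. The other 6 were Tspoap1 (-1.48), the mitochondrial acetyl-CoA synthetase Acss1 (-1.47), Xrcc6, the Ku70 subunit of the end-joining complex (-1.46), Endou (-1.41), the Groucho-family corepressor Tle3 (-1.40) and Neil1, a glycosylase of base excision repair (-1.35). Only genes that passed the test were ranked, so all 6 passed it.

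The 6 named lineage genes gave mixed results at 12 h. Rag1 fell by 1.24 (SE 0.11, adjusted p = 6.8e-05), Rag2 by 0.68 (SE 0.11, adjusted p = 0.002), Fcrla by 0.68 (SE 0.17, adjusted p = 0.015) and Blk by 0.40 (SE 0.10, adjusted p = 0.016). Erg rose by 0.42 (SE 0.14, adjusted p = 0.044), and Foxo1 differed by 0.01 (SE 0.10, adjusted p = 0.97). Foxo1 had 4 probe sets, of which 2 were lower at 12 h, and their mean differed by -0.22 (adjusted p = 0.044). Erg lost its call in 7 of 9 alternative fits, among them the mean of its 2 probe sets. Fcrla lost it without 0 h array 1 and without either 12 h array, and Blk without 0 h array 2 or 12 h array 2. Mki67, the common marker of dividing cells, stood at -0.16 and -0.07 at 0 h, -1.39 and -1.47 at 6 h, 0.18 and 0.07 at 12 h and 0.44 and 0.20 at 24 h and its 12 h difference of 0.24 did not pass (adjusted p = 0.14).

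**Figure D3:**
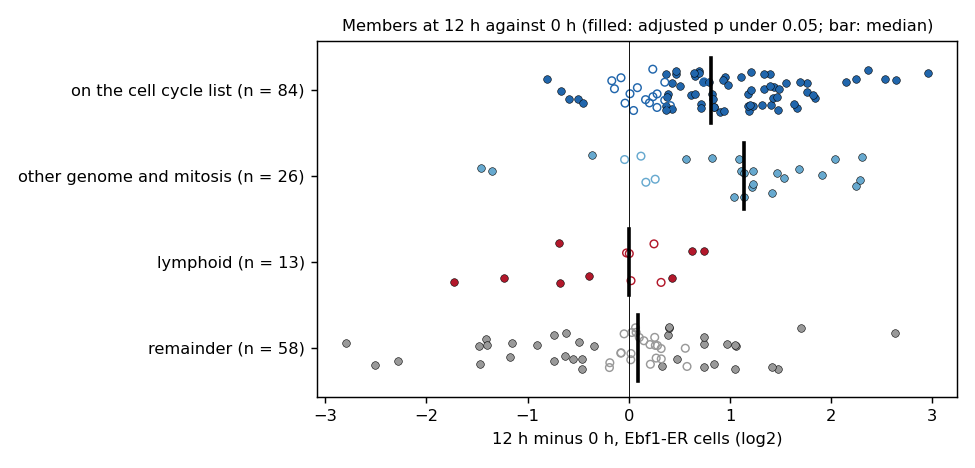
Difference between 12 h and 0 h of Ebf1-ER cells (x axis, log2) for each reciprocal gene by class (y axis), filled where the adjusted p is under 0.05, with the class median as a bar. The medians are 0.81 for list genes, 1.14 for further genome genes, 0.01 for lymphoid genes and 0.09 for the rest.

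Wider lists held more genes of the same pathways. Of 49 measured early B-lineage genes 25 passed the Ebf1-Engrailed cut and 14 the 24 h cut, 8 passed both, and 5 of these 8 are reciprocal genes while 3 were left out by symbol. At 12 h against 0 h 8 of the 49 were higher and 20 lower (median -0.12). Of 34 measured genes of pre-B receptor signalling 6 were higher and 15 lower (median -0.31), and 1 of them, Blk, is a reciprocal gene. Of 23 measured Ebf1 target genes 3 were higher and 10 lower (median -0.39), with 4 reciprocal genes among them. Of the cell cycle genes, 130 of 180 measured were higher and 10 lower (median 0.79).

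The tumours were not used to choose the genes. Against wild-type pro-B cells 7 of the 181 genes were higher in the lymph nodes, 11 lower and 163 did not pass. Over all genes 11.3% were higher and 8.64% lower, 19.9% in either direction, against 3.87% higher and 6.08% lower among the reciprocal genes. The median difference was -0.04. All 8 nodes lay above both wild-type samples for 11 genes, where 15.9% of all genes did, and below both for 16, where 12.8% did. On the cell cycle list 2 of 84 genes were higher and 4 lower, and among the 13 lymphoid genes none was higher and 2 lower. The 80 genes left out by symbol had 4 higher and 5 lower. The wild-type side rests on 2 samples. Without wild-type sample 1 the counts were 2 higher and 3 lower, and without sample 2 they were 0 higher and 3 lower. They were 4 higher without node 278 or node 383, and 11 higher without node 292. With all 18 arrays and the node as a random block 20 were lower. The granulocyte, macrophage, erythroid and stromal markers of the wild-type samples move with every value of this comparison, and their part in it was not tested.

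Grb10, an adaptor that restrains insulin and IGF receptor signalling, had the largest increase. Its lowest, median and highest node stood at -1.29, 0.76 and 2.47, against -3.75 and -3.10 in the wild-type samples. All 8 nodes lay above both wild-type samples, by 4.22 on average (SE 0.90, adjusted p = 0.0088). Only 1 of its 3 probe sets was called, and their mean differed by 1.45. Pde8a, a cAMP phosphodiesterase, stood at -2.05, 0.16 and 0.72 (lowest, median, highest node), against -2.68 and -2.02 in wild-type cells, a difference of 2.31 ± 0.60 (SE, adjusted p = 0.023), with 7 of 8 nodes above both wild-type samples and 2 of 2 probe sets called. Tnni2 stood at -1.21, 0.07 and 0.61 in the nodes, against -1.76 and -2.07 in wild-type cells, a difference of 1.95 ± 0.39 (SE, adjusted p = 0.0063), with 2 of 3 probe sets called. The other 4 were Tmem108 (1.77, 3 of 3 probe sets), the endoribonuclease Endou (1.48, 1 of 2), Dtl, a ubiquitin ligase subunit of replication control (1.37, 1 of 6), and Rad18, which ubiquitinates the replication clamp (0.83, 1 of 4). All 8 nodes were above both wild-type samples for each of these 4 and for Tnni2. With the mean of all probe sets Dtl differed by 0.68 and Rad18 by 0.52, and neither passed. Dtl was called in 9 and Rad18 in 6 of 16 alternative fits. None of the 7 kept its call when each wild-type sample was left out in turn, although Tnni2 lost it only without sample 2 (adjusted p = 0.089).

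Of the 11 decreases, those of Enpp6, Camk2b and Lrmp passed in all 16 alternative fits. Enpp6, a choline phosphodiesterase, stood at -0.13, 0.03 and 0.50 in the lowest, median and highest node, against 2.31 and 1.52 in wild-type cells, a difference of -1.79 ± 0.22 (SE, adjusted p = 0.00046). Camk2b, a calcium-dependent kinase subunit, stood at -0.88, -0.14 and 0.40 in the nodes, against 1.57 and 1.34 in wild-type cells, a difference of -1.62 ± 0.27 (SE, adjusted p = 0.0029). Lrmp, a membrane protein of lymphoid cells, stood at -0.58, -0.01 and 0.37 in the nodes, against 1.12 and 1.09 in wild-type cells, a difference of -1.22 ± 0.21 (SE, adjusted p = 0.0029). In each of the 3 all nodes lay below both wild-type samples.

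Rag2 was the recombination gene that passed. It stood at -1.11, -0.25 and 1.17 in the lowest, median and highest node, against 1.89 and 1.34 in wild-type cells, a difference of -1.76 ± 0.44 (SE, adjusted p = 0.019). It lost the call without either wild-type sample. Rag1 stood at -0.32, -0.10 and 1.11 in the nodes, against 0.76 and 0.68 in wild-type cells. Its difference of -0.70 (SE 0.31) did not pass (adjusted p = 0.15), and node 292 lay above both wild-type samples. Foxo1 differed by -0.90 (SE 0.41, adjusted p = 0.16) and Fcrla by -2.99 (SE 1.20, adjusted p = 0.11), with a spread between nodes of the same order. The remaining decreases were Tifa (-1.92), the base excision glycosylases Neil3 (-1.50) and Neil1 (-1.30), the kinetochore scaffold Knl1 (-1.56) and the spindle protein Ckap2l (-1.45). Baz1b, a chromatin remodelling subunit, followed at -0.83, and last came Ezh2, the methyltransferase of the Polycomb complex, which the naming rule did not reach (-0.81). With the mean of all probe sets Baz1b differed by -0.12, Knl1 by -0.89 and Ckap2l by -1.05, and none of these passed. Ckap2l was called in 7 of 16 alternative fits.

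**Figure D4:**
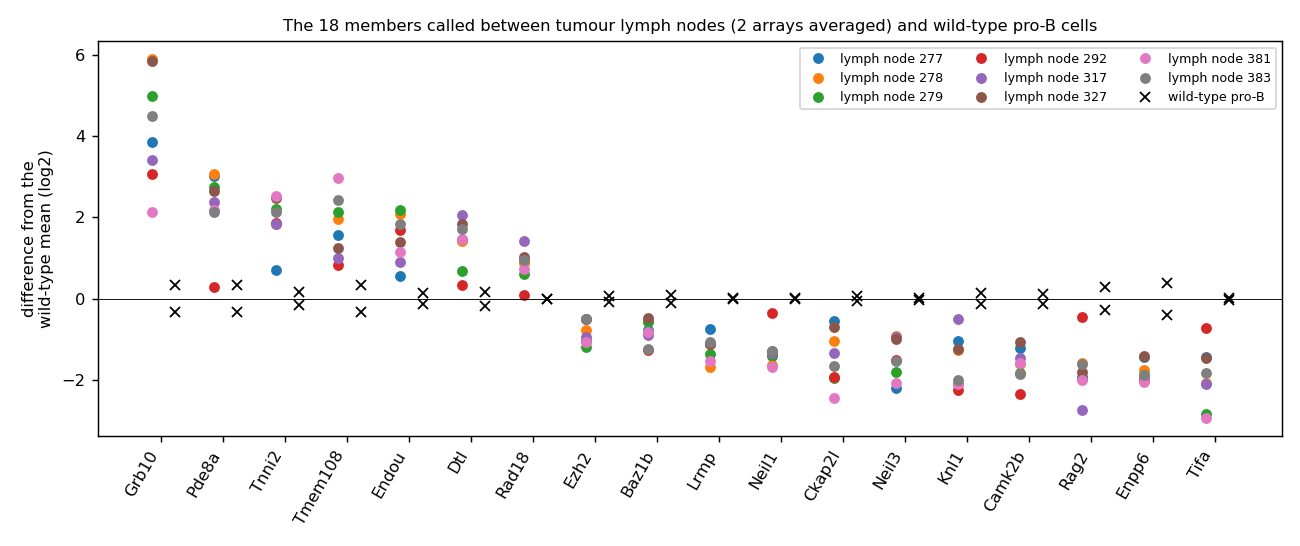
The 18 reciprocal genes called in the tumours (x axis), each lymph node as a coloured point and each wild-type pro-B sample as a cross, as the difference from the wild-type mean (y axis, log2). For Pde8a node 292 lies beside the wild-type samples, and all other points of these genes lie on 1 side of both wild-type values.

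Nearly all of the genes differed between lymph nodes. By limma's F test over 16 arrays 180 of the 181 genes differed between nodes, where 59.6% of all genes did. So did all 80 genes left out by symbol. The median range over the 8 nodes was 1.42 on the log2 scale for reciprocal genes, 1.23 for the genes left out by symbol and 0.57 over all genes. In that test the error is the scatter of the 2 arrays of each node, which may be technical. The 6 genes with the largest F were Akap12, Blk, Grb10, Car3, Jchain and D17H6S56E-5. Akap12, a scaffold for protein kinase A, stood at -3.26 in node 381 and -1.97 in node 278, and between -0.71 and 0.75 in the other 6. Blk stood at -3.02 in node 317 and -3.58 in node 381, and between -0.30 and 0.67 in the other 6, against -1.05 and -0.95 in wild-type cells. Both genes were low in 2 nodes, with node 381 the lowest for each. Car3 stood at -3.10 and -3.64 in nodes 278 and 292, and between -0.27 and 1.37 in the others. Jchain ranged from -1.25 in node 292 to 2.11 in node 327. D17H6S56E-5 stood at -2.68 in node 317 and -1.71 in node 279, and between -0.14 and 0.17 in the other 6.

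The mean of the 84 cell cycle list genes was highest in nodes 327 and 277, at 0.50 and 0.45, and lowest in nodes 279, 292 and 381, at -0.55, -0.51 and -0.37. The wild-type samples lay between them at 0.12 and 0.07. Mki67 stood at 0.41 and 0.24 in nodes 277 and 327, at -0.92, -0.50 and -0.75 in nodes 279, 292 and 381, and at 0.27 and 0.43 in wild-type cells. Node 279, with the lowest mean, had the highest T-cell marker mean, 2.90, and the highest granulocyte mean of the nodes, 2.17. Node 383 was second for both, at 1.43 and 1.17, and its cell cycle mean was 0.13, close to the wild-type samples. In nodes 292 and 381 the T-cell means were 0.13 and 0.90. Node 279 was also the highest node for NK-cell, mature B-cell and plasma-cell markers, at 1.98, 1.61 and 0.81. The part of these cells in the result was not tested.

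The mean of the lymphoid genes was lowest in nodes 317 and 381. It was -1.05 in node 317 and -0.55 in node 381, between -0.10 and 0.19 in the other 6 nodes, and 0.66 and 0.57 in wild-type cells. In node 381 much of the low mean came from Blk and Fcrla, at -3.58 and -2.01. In that node Foxo1 and Lrmp stood at -0.71 and -0.43, and Erg, Hemgn and Jchain at 0.13, 0.00 and 0.57. Node 292 was the highest for Rag1, Rag2, Foxo1 and Tifa, at 1.11, 1.17, 1.26 and 1.10, while its cell cycle mean was -0.51. In the same node the endothelial marker mean was 0.66, against -0.15 to 0.05 in the other nodes. Node 292 was also the highest for the means of pro-B cell and early B-lineage genes, at 0.57 and 0.34. The other nodes reached at most 0.21 and 0.12. For Ebf1 target and pre-B receptor signalling genes it stood at 0.43 and 0.24, against at most 0.09 and 0.12. These 4 lists share some genes with the reciprocal genes. The part of other cells in these values was not tested. Fcrla, an Fc receptor-like protein of B cells, stood at 2.44 in node 278 and 0.91 in node 292, between -2.71 and 0.00 in the other 6, and at 2.31 and 1.95 in wild-type cells.

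**Figure D5:**
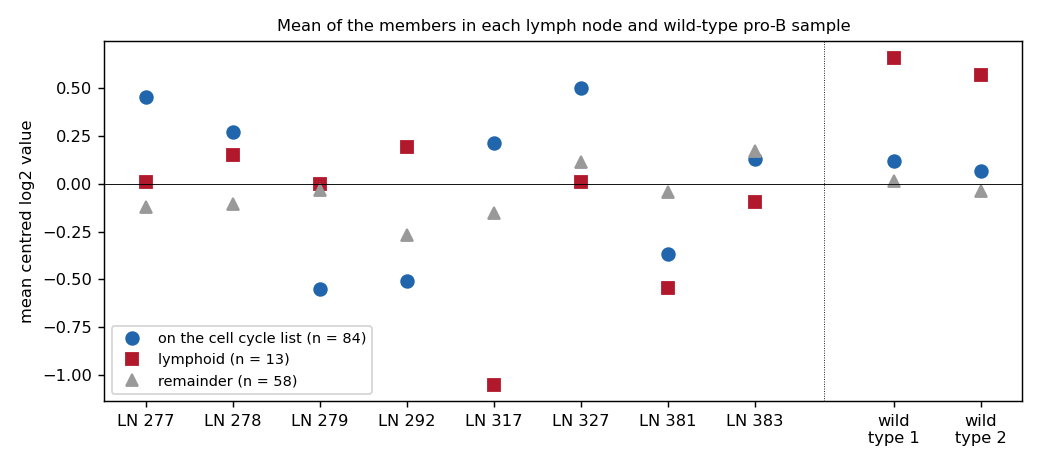
Mean centred log2 value (y axis) of the 84 list genes, the 13 lymphoid genes and the 58 remaining genes in each lymph node and wild-type pro-B sample (x axis). The mean of list genes is lowest in nodes 279, 292 and 381. That of lymphoid genes is lowest in nodes 317 and 381, in node 381 largely through Blk and Fcrla.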

How the data were processed

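Transcript abundance came from 32 Affymetrix mouse arrays. The authors deposited log2 values for 45101 probe sets, which RMA produced according to the submitters' processing notes. The log base, not given in the sources used here, was read as 2. The values were centred on the median per probe set within the 230238 and Ebf1-ER experiments and on another constant in the tumours, so levels, a filter on low values and an intensity trend could not be used. The number of arrays limits the precision. Control probe sets and those with several genes or none were left out. Of the 34945 used, 34741 took their names from the RefSeq genes supplied. The probe set with the largest variance in each experiment stood for a gene, which favours large differences. Genes passed the rule at -0.8 and 0.5.

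Linear models were fitted in R 4.3.3 with limma 3.58.1 (lmFit, then eBayes) and version 1.17.8 of data.table, 1 model per experiment, with two-sided Benjamini-Hochberg adjusted p-values over 18193 genes and a threshold of 0.05, and were tested on simulated data. Against wild type, the mean of a node's 2 arrays was used. Errors are SE. Apart from the node numbers, nothing says that replicates are separate cultures or animals, so a p-value reflects only the scatter of these samples, possibly technical. Samples with the same number in the 230238 experiment deviated together (correlations of 0.286, 0.356 and 0.445), so pairs are described there. The reciprocal genes, the gene lists and the classes were chosen with earlier results of these data known, and the classes off the cell cycle list were made from the names of the chosen genes. Named were the genes on the lineage lists, the 10 largest differences in each cut, the 10 largest called changes each way at 12 h and in the tumours, the 6 largest F between nodes, the 3 genes on either side of each cut and Mki67. Alternatives were the mean of all probe sets, other cuts, a filter on variance, centred arrays, single arrays of a node, a random or replicate block, and leaving out each sample.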

Additional observations from a re-analysis of the deposited data

Results flagged for a closer look

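Among 57 named genes, each with 8 lymph nodes, 9 had 1 node far from the other 7. The limit used flags about 1 in 20 groups of independent normal values. The share over all genes was not counted, and some of the 57 were named for their tumour or node differences. The genes also share the same nodes, so the 9 cannot be read against that rate. The measure is the gap to the nearest node divided by the whole range and Dixon's critical value at 95% was the limit. Node 292 accounted for 5 of them. It was the highest for Rag1 (ratio 0.711, at 1.11 against -0.32 to 0.10 in the others), Neil1 (0.703, at 0.94 against -0.40 to 0.00), Acss1 (0.549, at 1.14 against -0.75 to 0.10) and Foxo1 (0.540, at 1.26 against -0.71 to 0.19). It was the lowest for Pde8a (0.661, at -2.05 against -0.22 to 0.72). Node 279 was the highest for Clgn (0.652, at 2.96 against -0.57 to 0.66). Node 277 was the lowest for Tnni2 (0.622, at -1.21 against -0.08 to 0.61) and Tspoap1 (0.566, at -1.12 against -0.32 to 0.29). Node 381 was the lowest for Xrcc6 (0.563, at -1.47 against -0.25 to 0.70).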

How the results depend on the processing

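The set of 181 genes depends on how a gene is read. With the mean of all probe sets the rule found 112 genes, 111 of them shared. Cuts of -1 and 1 gave 71 and cuts of -0.6 and 0.4 gave 301. Leaving out each array in turn gave 170 to 199. For the tumours, all 18 arrays with the node as a random block gave 10 higher and 20 lower. Leave-one-out fits gave 1117 to 3985 called genes in all, with 0 to 11 reciprocal genes higher and 3 to 15 lower. Of the 18 tumour calls 3 held in every fit. At 12 h against 0 h leave-one-out fits gave 5701 to 7265 genes, 87 to 96 reciprocal genes higher and 25 to 29 lower, and 103 of 133 calls held in every fit. Foxo1 at 12 h turned to -0.22 with the mean of all probe sets. Between nodes leave-one-out gave 10252 to 10787 genes and 179 to 180 reciprocal genes. With the replicate number as a block 12 h against 0 h gave 6964 genes, 98 reciprocal genes higher and 32 lower. The numbers of the 2 groups deviated together only weakly (correlation 0.111), and over all pairs of times from -0.246 to 0.153. With the array number as a block the nodes gave 11499 genes and 180 reciprocal genes. No paired analysis was possible for the tumours because the wild-type samples share no numbers with the nodes. The wild-type side has 2 samples, and without 1 of them the other is assumed to vary like the nodes. Centred values do not show which genes lie near background.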

Other observations

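Genes of striated muscle stood among the reciprocal genes, a group chosen after their values were seen. Tnnt3 and Tnnt2, which encode fast skeletal and cardiac troponin T, joined the troponin I gene Tnni2. Tnnt3 stood at -1.06, -0.60 and -0.59 with Ebf1-Engrailed and at 0.59, 0.84 and 0.80 with the empty vector. Tnnt2 stood at -0.65, -0.76 and -0.99 with Ebf1-Engrailed and at 0.65, 1.14 and 1.07 with the empty vector. The groups did not overlap for either gene. Neither passed at 12 h against 0 h (differences of -0.08 and 0.21, adjusted p = 0.76 and 0.57). In the tumours Tnnt2 ranged from -1.92 in node 279 to 2.59 in node 383, against 0.43 and 0.00 in wild-type cells, while Tnnt3 stayed between -0.33 and 0.18 in the nodes, against 0.04 and -0.11 in wild-type cells.

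Among the reciprocal genes 5 pairs are neighbours in the genome, with only measured genes considered: Rag2 with Rag1, Prr11 with Ska2, Pbk with Esco2, Oip5 with Nusap1 and Parpbp with Nup37. The share of such pairs over all genes was not counted. In each pair apart from Rag2 with Rag1, at least 1 gene is on the cell cycle list, which holds 84 of the 181 genes.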
